A study of Mus musculus with 2 samples.

Results

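The 10 receptor tyrosine kinases described here, which can signal through the phosphatase SHP2, were followed in single-cell RNA sequencing of MC38 tumours, to see which cells carried which receptor and how the levels stood after SHP2 inhibition. The members were taken by symbol from a given list and are Egfr, Erbb2, Met, Fgfr1, Pdgfra, Pdgfrb, Axl, Csf1r, Kdr and Igf1r. All 10 were among the 31053 features, and each matched 1 gene identifier. MC38 is a mouse colon carcinoma line, and here it was injected into the flank of C57BL/6 mice with no genetic change named in the labels. The treated mice received SHP099 hydrochloride, an allosteric inhibitor of SHP2, into the stomach at 5 mg/kg daily for 14 days. The control mice received PBS over the same time and are also called untreated. Treatment started 5 days after injection, at a mean tumour size of 100 mm3, with 6 mice per group. Each group gave 1 library, and the sources used here give neither the sex and age of the mice nor the number of tumours pooled.

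Receptor tyrosine kinases are single-pass membrane proteins that bind a growth factor outside the cell, pair up and phosphorylate each other's tails. SHP2, encoded by Ptpn11, binds such phosphorylated tails or docking proteins of the Gab, Frs and Irs families and helps to pass the signal on to RAS and ERK. In tumours, Egfr, Erbb2 and Met are best known from carcinoma cells, Pdgfra and Pdgfrb from fibroblasts and pericytes, Kdr from vessels, and Csf1r and Axl from macrophages.

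The SHP099 library held 8263 barcodes and 112901642 UMIs, and the control library 8245 barcodes and 126218180 UMIs, where a UMI counts 1 captured RNA molecule. After filtering, 7702 SHP099 cells and 7688 control cells remained, and 100 barcode sequences occurred in both libraries. Clusters were named from marker genes, so a class name stands for cells resembling that type. Clusters with almost no Xist, the transcript that silences an X chromosome in female cells, are called Xist-negative cells and made up 55.7% of SHP099 cells and 54.4% of control cells. Their Xist level was 2.95 CPM in SHP099 and 2.67 CPM in control, while every other described class was at 866 CPM or more in both libraries. CPM are the UMIs of a gene per 1000000 UMIs of the class. Of the MC38 marker list, Xist-negative cells expressed Hmga2 at 82.3 CPM in SHP099 and 108 CPM in control. Igf2bp2 was at 47.6 CPM in SHP099 and 50.3 CPM in control. Tnfrsf12a and Igf2bp3 were at 13.2 CPM or more in both libraries. The rest of the list was almost absent. Krt8 was at 0.0325 CPM in SHP099 and 0.115 CPM in control, and Igf2bp1 and Krt18 were lower in both libraries. The epithelial markers Epcam, Krt19 and Krt20 had no UMI there. The fibroblast marker Dcn was at 1504 CPM in SHP099 and 1132 CPM in control. The rest of the fibroblast list was at 53.6 CPM or less in SHP099 and 31.0 CPM or less in control. Of these, Col1a1 was at 30.4 CPM in SHP099 and 12.9 CPM in control. In the class named fibroblasts Col1a1 was at 11948 CPM in SHP099 and 9612 CPM in control. The Xist-negative cells are therefore named by the rule and not as carcinoma cells. The other classes were mononuclear phagocytes, with 2769 SHP099 and 2676 control cells, T cells with 399 SHP099 and 521 control cells, dendritic cells with 80 SHP099 and 88 control cells, NK cells with 53 SHP099 and 96 control cells, endothelial cells with 53 SHP099 and 34 control cells, and fibroblasts with 49 SHP099 and 84 control cells. With 1 library per group there is no replicate check and no test, and the 95% intervals of levels, shares and ratios cover counting error only. Counts are from the 3′ end of each transcript, so levels of one gene are compared across classes and libraries, not levels of different genes.

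Each of the receptors Kdr, Axl and Pdgfra had its highest level in another class, and their promoters are shown to set the regulatory sequence beside that pattern. RefSeq promoters on GRCm38.p6 were held for 7 of the 10 receptors. The windows run from 250 to 5 bases before the RefSeq start of the gene, 5′ to 3′ on the gene's strand, and capitals mark the GC box GGGCGG or its reverse complement. The first is Kdr at chr5:75978460-75978705 on the minus strand, the next Axl at chr7:25788738-25788983 on the minus strand, and the last Pdgfra at chr5:75152001-75152246 on the plus strand.
Kdr: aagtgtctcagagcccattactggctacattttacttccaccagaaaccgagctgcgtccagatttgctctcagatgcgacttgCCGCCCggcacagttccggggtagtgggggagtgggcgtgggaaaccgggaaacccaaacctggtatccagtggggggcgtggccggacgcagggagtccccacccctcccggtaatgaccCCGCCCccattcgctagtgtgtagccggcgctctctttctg
Axl: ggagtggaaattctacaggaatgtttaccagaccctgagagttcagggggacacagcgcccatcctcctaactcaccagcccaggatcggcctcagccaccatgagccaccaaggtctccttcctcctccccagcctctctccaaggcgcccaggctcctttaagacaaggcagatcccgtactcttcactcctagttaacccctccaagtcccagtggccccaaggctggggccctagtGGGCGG
Pdgfra: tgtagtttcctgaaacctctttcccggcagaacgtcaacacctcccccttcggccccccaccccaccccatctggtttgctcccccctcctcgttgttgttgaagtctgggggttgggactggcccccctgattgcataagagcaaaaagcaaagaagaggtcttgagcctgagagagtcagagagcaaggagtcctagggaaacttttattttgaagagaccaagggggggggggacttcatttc
The Kdr window held 2 GC boxes, the Axl window 1 and the Pdgfra window 0, and 32.2% of all 32851 RefSeq promoter windows of this length held at least 1. Kdr had 16 CpG dinucleotides, Axl 5 and Pdgfra 4. None of the 3 windows held the AP-1 site TGACTCA or TGAGTCA, found in 4.42% of all windows, the GATA site AGATAA, found in 9.87%, or the PU.1 site GAGGAAGT, found in 2.37%, on either strand. Matches are letters only and the capitals did not overlap one another. GENCODE places the gene starts elsewhere than RefSeq, so the gene positions given next do not sit exactly 5 bases from these windows. In the GENCODE M21 annotation of GRCm38, Pdgfra (chr5:75152292-75198215, plus strand) and Kdr (chr5:75932827-75978458, minus strand) lie 734611 bases apart. Axl is at chr7:25757273-25788705 on the minus strand, and Met at chr6:17463800-17573980 on the plus strand.

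For 9 receptors the class with the highest level was the same in both libraries. Fibroblasts were highest for Egfr, Fgfr1, Pdgfra and Pdgfrb, Xist-negative cells for Erbb2 and Met, mononuclear phagocytes for Axl and Csf1r, and endothelial cells for Kdr. For Igf1r the highest class was endothelial cells in SHP099 and fibroblasts in control, and the intervals of these 2 classes overlapped in both libraries. The intervals of the 2 highest classes also overlapped for Erbb2 and Met in both libraries, for Axl in control and for Pdgfrb in SHP099. Met in control was at 15.4 CPM in Xist-negative cells and 15.1 CPM in endothelial cells, the latter from 6 UMIs. T cells and NK cells were at 27.1 CPM or less for all 10 receptors. Xist-negative cells, the class with the most cells and the most UMIs per cell, held most UMIs of 8 receptors, between 80.2% (Axl) and 97.5% (Erbb2) in SHP099 and between 81.0% (Egfr) and 98.1% (Erbb2) in control. Csf1r and Kdr were the exceptions, with 95.4% of Csf1r UMIs in phagocytes in SHP099 and 94.8% in control, and 67.3% of Kdr UMIs in endothelial cells in SHP099 and 75.2% in control.

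**Figure D1:**
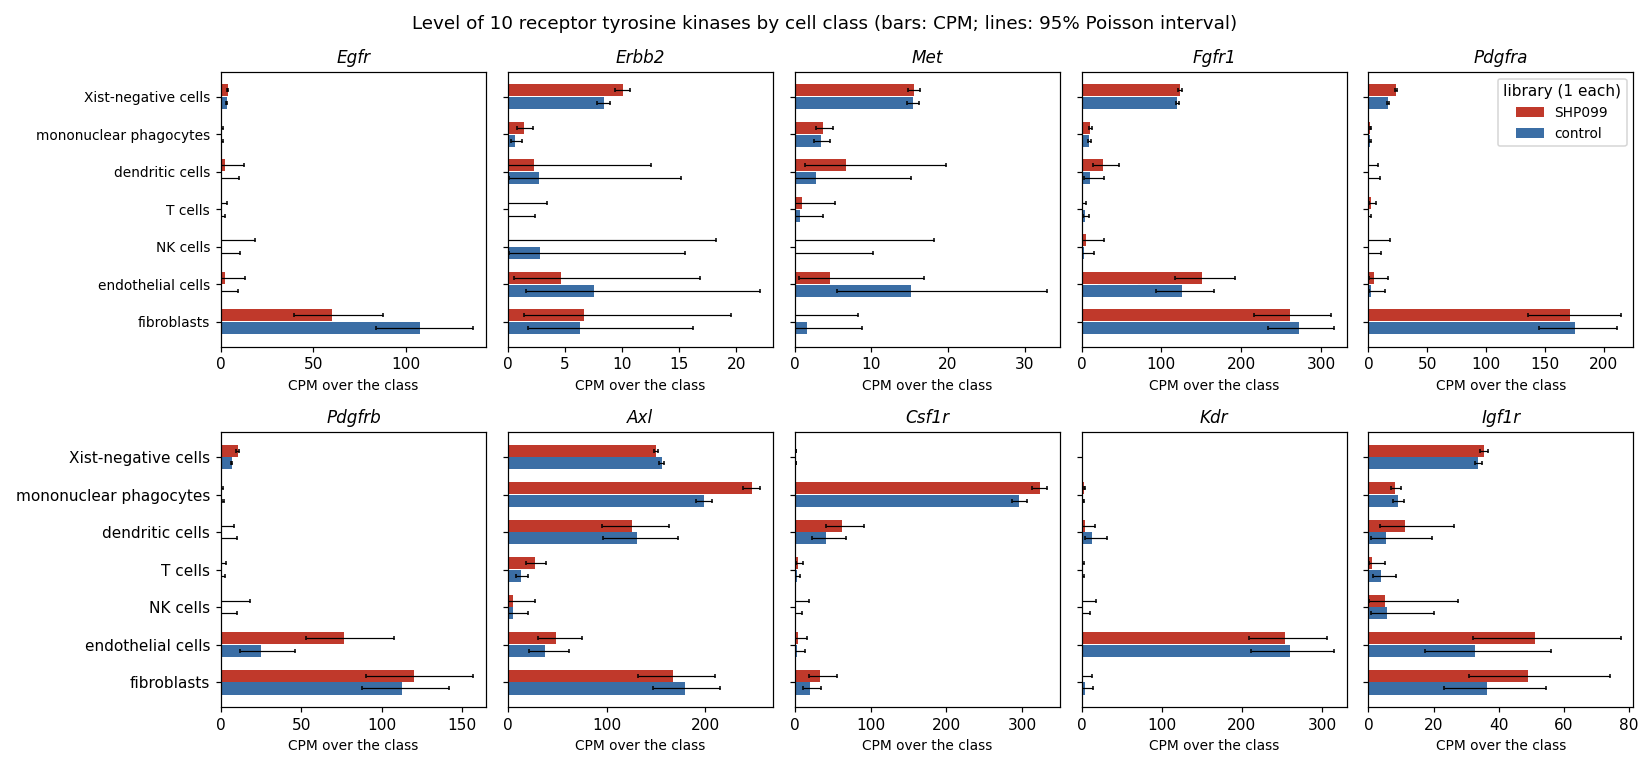
Level of each receptor (horizontal axis, CPM over the class, a scale of its own per panel) in 7 cell classes, with the SHP099 library in red above the control library in blue. Bars are levels of 1 library each and lines 95% Poisson intervals, and Kdr, Csf1r and Pdgfra each stand out in 1 class at 254, 323 and 172 CPM in SHP099 and 260, 296 and 176 CPM in control.

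**Figure D2:**
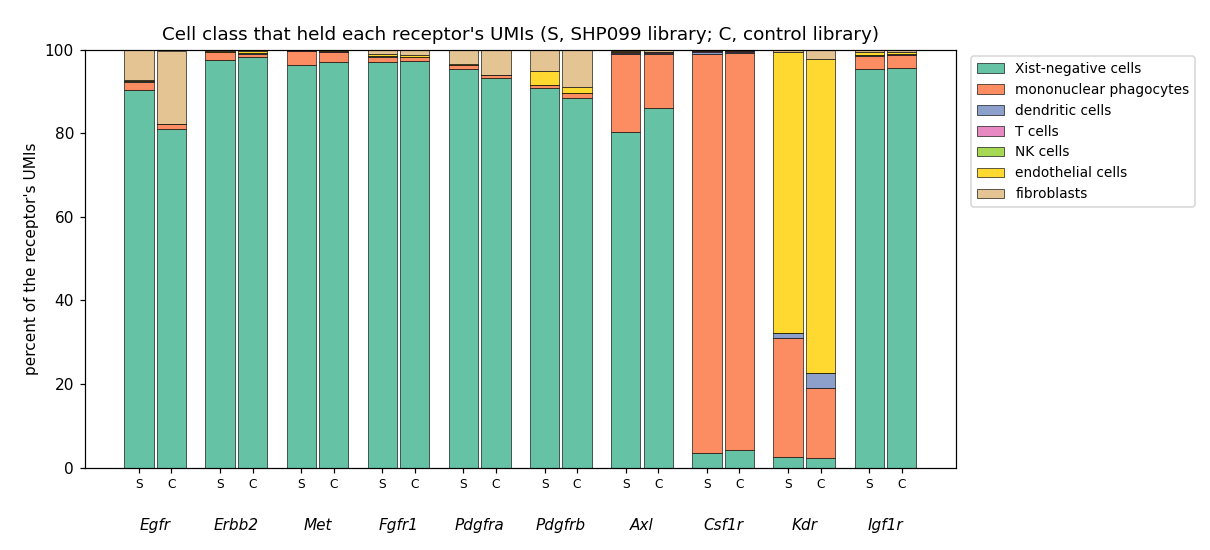
Percent of each receptor's UMIs (vertical axis) held by each cell class, with the SHP099 library (S) left of the control library (C). Xist-negative cells fill most of 8 bar pairs, phagocytes hold 95.4% of Csf1r in SHP099 and 94.8% in control, and endothelial cells hold most of Kdr.

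Egfr, the receptor for EGF and its relatives, had its highest level in fibroblasts, while 90.4% of its UMIs in SHP099 and 81.0% in control came from the far more numerous Xist-negative cells. In fibroblasts it was at 60.2 CPM in SHP099, from 27 UMIs, and 108 CPM in control, from 68 UMIs. The log2 ratio of SHP099 over control was -0.83 (interval -1.54 to -0.18). In Xist-negative cells it was only 3.67 CPM in SHP099 and 3.03 CPM in control, and in phagocytes 0.536 CPM in SHP099 and 0.406 CPM in control. Drawn down to 2000 UMIs per cell, Egfr was in 4.55% of SHP099 fibroblasts (interval 0.555 to 15.5%) and 29.4% of control fibroblasts (interval 19.0 to 41.7%), against 38.8% of SHP099 and 45.2% of control fibroblasts unthinned, at median depths of 8369 UMIs in SHP099 and 6844.5 in control. No Egfr UMI was found in T or NK cells of either library. The fibroblast difference rests on 49 SHP099 cells and 84 control cells, and the plasma cell list summed to 176 CPM in SHP099 and 1212 CPM in control in that class, with 1 of 4 markers seen in SHP099 and 4 of 4 in control. The macrophage list summed there to 1307 CPM in SHP099 and 1045 CPM in control (8 of 8 markers seen in both), and the pericyte list to 589 CPM in SHP099, with 5 of 8 seen, and 322 CPM in control, with 6 of 8 seen. Of the fibroblast markers, all 8 seen in both, Dpt was at 259 CPM in SHP099 and 477 CPM in control and Clec3b at 66.9 CPM in SHP099 and 193 CPM in control, while the list summed to 30794 CPM in SHP099 and 27716 CPM in control. Malat1 was at 41460 CPM in SHP099 and 28742 CPM in control. Their part in the Egfr difference was not tested.

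Erbb2, the partner receptor of the EGF receptor family that binds no known ligand itself, was at 10.0 CPM in Xist-negative cells in SHP099, against 8.38 CPM in control. The log2 ratio was 0.25 (interval 0.13 to 0.40), below the 1.5-fold size used here to call a difference. Outside these cells Erbb2 was at 7.56 CPM or less in every class and library. Its gene overlaps Mien1 on the opposite strand, and the sources used here do not say how the counting treated strand.

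Met, the receptor for hepatocyte growth factor, was at 15.5 CPM in Xist-negative cells in SHP099, from 1431 UMIs, and 15.4 CPM in control, from 1602 UMIs. The log2 ratio was only 0.01 (interval -0.09 to 0.12), and its sign changed under 3 of 16 other settings. In phagocytes Met was at 3.75 CPM in SHP099 and 3.41 CPM in control.

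Fgfr1, a receptor for fibroblast growth factors, was high in every non-immune class. Fibroblasts had 261 CPM in SHP099 and 272 CPM in control, endothelial cells 151 CPM in SHP099 and 126 CPM in control, and Xist-negative cells 123 CPM in SHP099 and 120 CPM in control. The intervals of fibroblasts and endothelial cells did not overlap in either library, while those of endothelial and Xist-negative cells did. In Xist-negative cells 11371 SHP099 UMIs and 12499 control UMIs gave a log2 ratio of 0.04 (interval 0.00 to 0.07). The immune classes were lower, with 10.6 CPM in phagocytes in SHP099 and 9.91 CPM in control. Much of that phagocyte level came from 1 shallow cluster, described further on.

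Igf1r, the receptor for insulin-like growth factors, followed Fgfr1 closely across classes, with a Pearson correlation of 0.97 of log2(CPM + 1) over 14 points, which are 7 classes in 2 libraries. The points share their libraries and class depths, so the value is a description. Endothelial cells had 51.2 CPM in SHP099 and 32.8 CPM in control, fibroblasts 49.1 CPM in SHP099 and 36.4 CPM in control, and Xist-negative cells 35.5 CPM in SHP099 and 33.7 CPM in control. The log2 ratio in Xist-negative cells was 0.07 (interval 0.01 to 0.14). Phagocytes were at 8.27 CPM in SHP099 and 9.10 CPM in control.

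Pdgfra and Pdgfrb, the receptors for platelet-derived growth factors that mark mesenchymal cells, were the receptors with the largest ratios in Xist-negative cells. Pdgfra was at 23.3 CPM in SHP099, from 2148 UMIs, and 16.5 CPM in control, from 1716 UMIs. Its log2 ratio was 0.49 (interval 0.41 to 0.59), or 1.40-fold, just under the size of a call. Pdgfrb was at 10.3 CPM in SHP099, from 952 UMIs, and 6.68 CPM in control, from 695 UMIs. Its log2 ratio was 0.59 (interval 0.49 to 0.77), or 1.51-fold, just over it.

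Among the 7 receptors at 10 CPM or more in Xist-negative cells in either library, Pdgfrb was the 1 called higher and none was called lower. Pdgfrb and Erbb2 passed the 10 CPM limit through the SHP099 library alone, where they were higher, so the filter and the Pdgfrb call share a value. Of all 7034 genes measured in that class, 1.12% were called higher and 0.227% lower. The median log2 ratio of the 7 receptors was 0.07, and that of all measured genes 0.02. The Pdgfrb call was lost at a log2 ratio of 0.57 when ratios were centred on the median gene, at 0.45 when clusters were weighted alike and at 0.51 with a prior of 2 CPM. With cells assigned by their own markers the ratio was larger, at 0.66, and the call was lost through the level limit, at 7.35 CPM in SHP099 and 4.48 CPM in control. In the same class the median depth was 20157 UMIs per cell in SHP099 and 24337 in control, and Malat1 was at 24328 CPM in SHP099 and 17827 CPM in control. The fibroblast list summed to 1620 CPM in SHP099 and 1200 CPM in control, with 8 of 8 markers seen in both. Most of that sum was Dcn, at 1504 CPM in SHP099 and 1132 CPM in control. Col1a1 was at 30.4 CPM in SHP099 and 12.9 CPM in control, and Col1a2 at 5.03 CPM in SHP099 and 3.33 CPM in control. The part of depth, Malat1 and the fibroblast markers in the receptor ratios was not tested.

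In fibroblasts themselves, both receptors were as high in one library as in the other within counting error. Pdgfra was at 172 CPM in SHP099 and 176 CPM in control, with a log2 ratio of -0.03 and an interval of -0.47 to 0.40. Pdgfrb was at 120 CPM in SHP099 and 112 CPM in control, with a log2 ratio of 0.10 and an interval of -0.44 to 0.63.

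**Figure D3:**
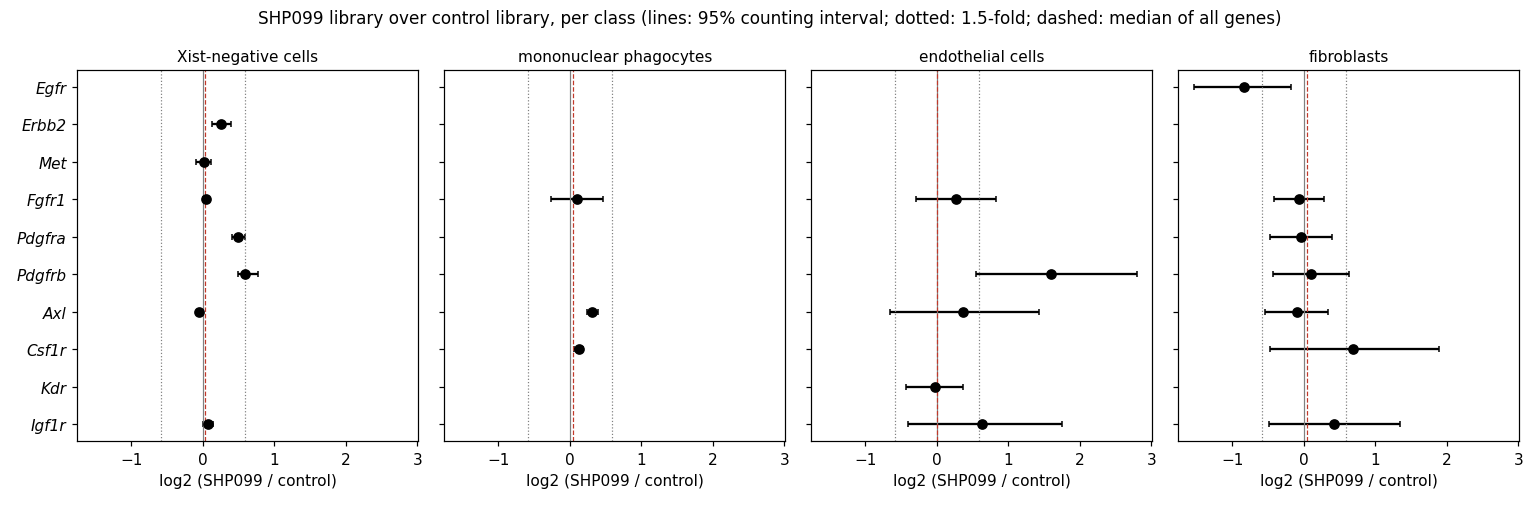
Log2 ratio of SHP099 over control (horizontal axis) for receptors that reached 10 CPM in at least 1 library and 20 UMIs over both, in 4 classes. Points are single ratios, lines 95% counting intervals, dotted lines the 1.5-fold size and the dashed line the median of all measured genes, and Pdgfrb lies at 0.59 in Xist-negative cells and 1.59 in endothelial cells.

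Within the Xist-negative cells the receptors divided the clusters. Clusters 0 and 1, led by genes such as Ogn and Osr2 that were named after they were seen, were high in Pdgfra and Pdgfrb and low in Met. By the marker rule cluster 0 was named fibroblast, through 3 of 8 markers, which were Dpt, Dcn and Clec3b. Cluster 1 was left unnamed, with 2 of 8, Dpt and Dcn, found. The other Xist-negative clusters were named MC38 tumour cells. Xist in clusters 0 and 1 was at 3.53 and 4.05 CPM over both libraries. The fibroblast marker Col1a1 was at 29.2 CPM in SHP099 and 21.2 CPM in control in cluster 0. In cluster 1 it was at 147 CPM in SHP099 and 96.1 CPM in control. The separate fibroblast class had Col1a1 at 11948 CPM in SHP099 and 9612 CPM in control. In cluster 1 Pdgfra reached 52.5 CPM in SHP099 and 43.9 CPM in control, and Met was at 4.64 CPM in SHP099 and 7.79 CPM in control. Cluster 3, led by Cst6 and Nppb, was the reverse, with Pdgfra at 10.0 CPM in SHP099 and 8.95 CPM in control and Met at 28.7 CPM in SHP099 and 23.2 CPM in control. Across the 7 clusters other than the small cluster 11, in 2 libraries, Met and Pdgfra had a Pearson correlation of -0.81. It was -0.86 within SHP099 and -0.82 within control. These points share their libraries, so the value only describes how the clusters differ. The receptors and the other listed genes were left out of the clustering. Fgfr1 was highest in cluster 0, at 164 CPM in SHP099 and 168 CPM in control.

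Both platelet-derived growth factor receptors were higher in SHP099 in each of the 7 Xist-negative clusters with at least 20 UMIs. The log2 ratios of Pdgfra ran from 0.16 to 0.88, with 5 of 7 intervals above 0, and those of Pdgfrb from 0.33 to 1.35, with 3 of 7 intervals above 0. The clusters also differed in size. Clusters 0 and 1, where both receptors were high, held 998 and 535 SHP099 cells, against 610 and 285 control cells. With each cluster given the same weight in both libraries, the log2 ratio was 0.30 for Pdgfra and 0.45 for Pdgfrb. Met and Fgfr1 were higher in SHP099 in 4 of 7 and 4 of 8 clusters, and Axl in 4 of 8.

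**Figure D4:**
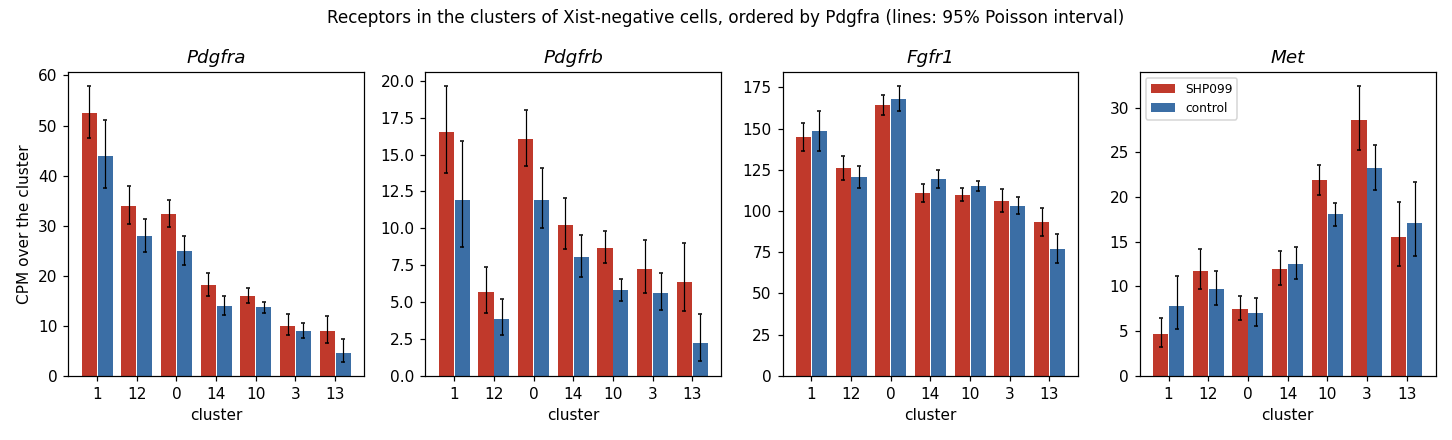
Levels (vertical axis, CPM over the cluster) of Pdgfra, Pdgfrb, Fgfr1 and Met in 7 clusters of Xist-negative cells, ordered by Pdgfra, with SHP099 in red left of control in blue and lines for 95% Poisson intervals. Pdgfra and Pdgfrb are higher in SHP099 in all 7 clusters shown, and Met runs the other way across clusters, from 4.64 CPM in cluster 1 to 28.7 CPM in cluster 3 in SHP099; cluster 11, with 56 SHP099 and 70 control cells, is left out.

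Single Xist-negative cells had a median of 2 of these receptors detected in each library. Cells were drawn down to 10000 UMIs each, which kept 3794 SHP099 and 3635 control cells and left out 499 SHP099 and 544 control cells that were shallower. A mean of 2.26 ± 1.11 receptors per cell was detected in SHP099 and 2.16 ± 1.07 in control, where the SD is over cells of 1 library. No receptor was found in 4.40% of SHP099 and 4.70% of control cells, and 3 or more in 39.6% in SHP099 and 35.8% in control. Axl was the most frequent, in 73.0% of SHP099 and 73.9% of control cells, then Fgfr1 in 67.2% in SHP099 and 65.9% in control.

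The frequencies of the platelet-derived growth factor receptors differed more between the libraries. Pdgfra was detected in 20.1% of SHP099 cells (interval 18.9 to 21.4%) and 14.7% of control cells (interval 13.6 to 15.9%). Before thinning it was in 31.7% in SHP099 and 28.3% in control. Pdgfrb was detected in 9.88% of SHP099 cells and 6.00% of control cells, and before thinning in 16.4% in SHP099 and 12.3% in control. For comparison, Csf1r, a gene of phagocytes, was found in 1.63% of the same SHP099 cells and 1.60% of control cells. Whether that came from free RNA or from uncalled doublets was not tested. Doublets were called in 2.51% of filtered SHP099 barcodes and 3.32% of filtered control barcodes. The calling was set to expect 6.32% in SHP099 and 6.36% in control. Egfr, in 3.85% of SHP099 cells and 3.47% of control cells, was the receptor next above the Csf1r share. Kdr, in 0.105% in SHP099 and 0.0550% in control, lay below it.

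Axl, which binds Gas6 on dying cells, was high in phagocytes, fibroblasts, Xist-negative cells and dendritic cells alike. Phagocytes had 247 CPM in SHP099, from 3226 UMIs, and 199 CPM in control, from 2445 UMIs. The log2 ratio was 0.31 (interval 0.24 to 0.39). Fibroblasts were at 167 CPM in SHP099 and 179 CPM in control, Xist-negative cells at 150 CPM in SHP099 and 156 CPM in control, and dendritic cells at 126 CPM in SHP099 and 130 CPM in control. In these 3 classes the SHP099 level was not above control, and in Xist-negative cells the log2 ratio was -0.056 (interval -0.09 to -0.02). Drawn down to 2000 UMIs per cell, Axl was found in 37.2% of SHP099 phagocytes and 31.2% of control phagocytes, against 57.3% in SHP099 and 51.0% in control unthinned.

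Csf1r, the receptor for the macrophage growth factors CSF1 and IL-34, was at 323 CPM in phagocytes in SHP099, from 4216 UMIs, and 296 CPM in control, from 3645 UMIs. The log2 ratio was 0.12 (interval 0.06 to 0.19). Dendritic cells had 63.0 CPM in SHP099, from 28 UMIs, and 40.7 CPM in control, from 15 UMIs. Drawn down to 2000 UMIs, Csf1r was in 47.4% of SHP099 phagocytes and 42.8% of control phagocytes. In T cells, which lack it, it was in 0.985% of SHP099 and 1.22% of control cells at the same depth. Unthinned shares in phagocytes were 68.9% in SHP099 and 65.2% in control, at median depths of 4201 UMIs in SHP099 and 4327.5 in control. Csf1r overlaps Hmgxb3 on the opposite strand.

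Of the 3 receptors at 10 CPM or more in phagocytes, which were Axl, Csf1r and Fgfr1, the last in SHP099 alone, none was called higher or lower. Of the 6868 genes measured there, 4.03% were called higher and 1.63% lower. The median log2 ratio of the 3 was 0.12, and that of all measured genes 0.05. With a level limit of 1 CPM, Kdr and Erbb2 were also past 1.5-fold, Kdr with 46 UMIs in SHP099 and 23 in control, and Erbb2 with 18 in SHP099 and 8 in control. Haemoglobin genes, from red cells, summed to 419 CPM in SHP099 phagocytes and 1.95 CPM in control phagocytes. Their part in the ratios was not tested.

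The ratios of Axl and Csf1r were spread over the phagocyte clusters. Csf1r was higher in SHP099 in 6 of 6 clusters, with log2 ratios of 0.01 to 0.33 and 2 intervals above 0. Axl was higher in 5 of 6, with ratios of -0.04 to 0.41 and 3 intervals above 0. The clusters also differed in size. Clusters 4 and 9 held 950 and 232 SHP099 cells, against 549 and 64 control cells. Clusters 6, 7 and 8 held 564, 475 and 323 SHP099 cells, against 634, 850 and 396 control cells. With each cluster given the same weight in both libraries, the log2 ratio was 0.24 for Axl and 0.11 for Csf1r. Cluster 8, the monocytes, had the lowest Axl level, at 122 CPM in SHP099 and 105 CPM in control. Cluster 4, macrophages led by Ms4a7 and Ccl12, had the highest levels of both, with Axl at 297 CPM in SHP099 and 236 CPM in control and Csf1r at 365 CPM in SHP099 and 341 CPM in control.

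Cluster 5, of 225 SHP099 and 183 control cells, had a median of only 1414.5 UMIs per cell and stood apart. There Fgfr1 was at 85.7 CPM in SHP099 and 101 CPM in control, while the other phagocyte clusters held 7.20 CPM or less in SHP099 and 6.34 CPM or less in control. The MC38 marker Hmga2 stood out there too, at 34.8 CPM in SHP099 and 53.9 CPM in control, against 4.72 CPM or less in SHP099 and 7.40 CPM or less in control in the other phagocyte clusters. Igf2bp2 was at 23.2 CPM in SHP099 and 29.7 CPM in control in cluster 5. The MC38 markers Igf2bp3 and Tnfrsf12a did not stand out in both libraries. Igf2bp3 was at 5.79 CPM in SHP099 and 5.39 CPM in control, against 11.8 CPM in SHP099 and 1.06 CPM in control in cluster 8. Tnfrsf12a was at 123 CPM in SHP099 and 143 CPM in control, against 112 CPM in SHP099 and 191 CPM in control in cluster 8. Xist, at 495 CPM over both libraries, was lower in cluster 5 than in the other phagocyte clusters. The part of RNA from Xist-negative cells in the Fgfr1 level was not tested. Without that cluster phagocyte Fgfr1 was 5.33 CPM in SHP099 and 4.06 CPM in control, and its log2 ratio was 0.35. Axl was then 250 CPM in SHP099 and 198 CPM in control, and Csf1r 334 CPM in SHP099 and 306 CPM in control.

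**Figure D5:**
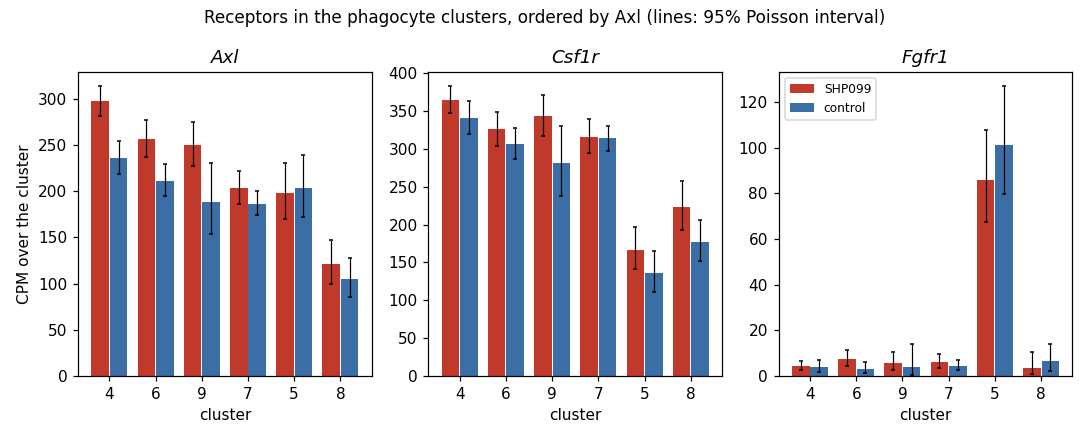
Levels (vertical axis, CPM over the cluster) of Axl, Csf1r and Fgfr1 in 6 phagocyte clusters, ordered by Axl, with SHP099 in red left of control in blue and lines for 95% Poisson intervals. Csf1r is higher in SHP099 in 6 of 6 clusters and Axl in 5 of 6, and Fgfr1 stands out in cluster 5, at 85.7 CPM in SHP099 and 101 CPM in control.

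In T cells the only receptor at 10 CPM or more was Axl, at 27.1 CPM in SHP099, from 29 UMIs, and 13.02 CPM in control, from 20 UMIs. The log2 ratio was 1.03 (interval 0.19 to 1.96). It was called higher, as were 11.3% of the 6951 genes measured in T cells, and 6.98% were called lower. At 2000 UMIs per cell Axl was in 4.43% of SHP099 and 1.82% of control T cells. The macrophage list summed to 322 CPM in SHP099 T cells, with 8 of 8 markers seen, and 273 CPM in control T cells, with 7 of 8 seen and Adgre1 at 0. Its part in the Axl ratio was not tested. The ratio was 0.03 with cells assigned by their own markers and 0.55 with each cell counted alike, both short of a call.

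Kdr, the main receptor for vascular endothelial growth factor on vessels, was found mainly in endothelial cells. Endothelial cells had 254 CPM in SHP099, from 109 UMIs, and 260 CPM in control, from 103 UMIs, with a log2 ratio of -0.03 and an interval of -0.44 to 0.37. No UMI fell in T cells, which allows up to 2.81 CPM in SHP099 and 1.95 CPM in control (3 counts of the class total). At 2000 UMIs per cell Kdr was in 32.6% of SHP099 and 37.5% of control endothelial cells, against 0.735% of SHP099 and 0.552% of control phagocytes. All 33 SHP099 and 24 control endothelial cells with a Kdr UMI also had Cdh5 or Pecam1, genes of endothelial junctions.

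In the endothelial class Pdgfrb was at 76.8 CPM in SHP099, from 33 UMIs, and 25.2 CPM in control, from 10 UMIs. The log2 ratio was 1.59 (interval 0.55 to 2.79). Pericytes, the cells that wrap small vessels, are known for this receptor, and their list summed to 1710 CPM in SHP099 and 990 CPM in control, with 8 of 8 markers seen in both. Of the cells with a Pdgfrb UMI, 11 of 12 in SHP099 and 5 of 6 in control had at least 3 pericyte markers. Only 5 of the 12 in SHP099 and 4 of the 6 in control lacked both Cdh5 and Pecam1, so others carried markers of both types. Cells of the class without Cdh5 and Pecam1 held 13 of the 33 Pdgfrb UMIs in SHP099 and 7 of the 10 in control. Only 4 SHP099 and 2 control cells held both Kdr and Pdgfrb. Of all endothelial-class cells, 14 of 53 in SHP099 and 5 of 34 in control had at least 3 pericyte markers. Their part in the ratio was not tested. Met was at 4.65 CPM in SHP099 and 15.1 CPM in control there, from 2 UMIs in SHP099 and 6 in control, with an interval that spans 0.

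Among the 31 listed ligands, those of Csf1r came from other cells than the receptor. Csf1 was at 47.8 CPM in Xist-negative cells in SHP099 and 43.8 CPM in control, and at 89.2 CPM in SHP099 and 116 CPM in control in fibroblasts. Il34, its second ligand, was at 43.8 CPM in Xist-negative cells in SHP099 and 36.5 CPM in control. For Axl, fibroblasts were the class with the highest Gas6 level. It was 125 CPM there in SHP099, from 56 UMIs, and 342 CPM in control, from 216 UMIs. They held Pros1, which encodes protein S, at 132 CPM in SHP099 and 171 CPM in control. Phagocytes, the class highest in Axl, held Gas6 too. Their cluster 7 had 45.2 CPM in SHP099, from 114 UMIs, and 24.6 CPM in control, from 108 UMIs (log2 interval 0.49 to 1.27). Cluster 4 had 14.7 CPM in SHP099 and 6.19 CPM in control (interval 0.48 to 2.09). In clusters 5, 6 and 9 the intervals span 0, and cluster 8 had no Gas6 UMI.

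The platelet-derived growth factor Pdgfa was at 90.2 CPM in Xist-negative cells in SHP099 and 102 CPM in control. Across their clusters it did not run with Pdgfra: cluster 1, with the most Pdgfra, had Pdgfa at 58.9 CPM in SHP099 and 68.6 CPM in control, and cluster 3 at 121 CPM in SHP099 and 126 CPM in control. Endothelial cells were the class with most Pdgfb, the factor that draws pericytes to vessels, at 100 CPM in SHP099 and 98.3 CPM in control. They also held Pgf, placental growth factor, which binds Flt1, at 193 CPM in SHP099 and 73.1 CPM in control. Vegfa, the ligand of Kdr, was highest in phagocytes, at 216 CPM in SHP099 and 345 CPM in control. Igf1, a ligand of Igf1r, was at 165 CPM in fibroblasts in SHP099, from 74 UMIs, and 298 CPM in control, from 188 UMIs. Fgf7, a fibroblast growth factor, was at 62.8 CPM in Xist-negative cells in SHP099 and 60.5 CPM in control.

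No ligand, further receptor, co-receptor, regulator or relay gene on the lists was called in Xist-negative cells. Of all 7034 genes measured there, 1.12% were called higher and 0.227% lower, and at those shares lists this short may hold no call. The measured members there were 9 of 31 ligands, 3 of 48 further receptors, 12 of 16 co-receptors and regulators and 4 of 9 relay genes, with median log2 ratios of 0.13, -0.02, 0.05 and 0.07. The further receptors were Ddr2, a collagen receptor, at 73.0 CPM in SHP099 and 71.8 CPM in control, Ryk, a Wnt receptor, at 52.6 CPM in SHP099 and 53.2 CPM in control, and Epha2, an ephrin receptor, at 11.9 CPM in SHP099 and 14.8 CPM in control. Ptpn11 itself, the gene of the inhibited phosphatase, was at 55.5 CPM in SHP099 and 53.8 CPM in control. The highest ratio was that of Igf2r, which clears IGF2 from the cell surface, at 17.3 CPM in SHP099 and 11.7 CPM in control, a log2 ratio of 0.55.

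In phagocytes 5 listed genes were called, all lower in SHP099, where 1.63% of all 6868 genes measured were called lower and 4.03% higher. These were 2 of 9 measured ligands, 1 of 11 co-receptors and regulators and 2 of 7 relay genes, with list medians of 0.01, 0.08 and -0.01. Nrg1, a ligand of the EGF receptor family, was at 16.3 CPM in SHP099 and 29.2 CPM in control, a log2 ratio of -0.82, and Vegfa had a ratio of -0.68. Sdc1, a syndecan that binds growth factors, was at 4.90 CPM in SHP099 and 11.2 CPM in control, a ratio of -1.12. Sdc1, like Gab1, passed the 10 CPM limit through the control library alone. The docking genes Gab1, at 6.89 CPM in SHP099 and 12.9 CPM in control, and Irs2, at 32.5 CPM in SHP099 and 49.96 CPM in control, had ratios of -0.86 and -0.61. Mertk, the relative of Axl that also clears dying cells, was the 1 further receptor measured there, at 24.6 CPM in SHP099 and 27.5 CPM in control. Ptpn11 was at 27.6 CPM in SHP099 and 27.3 CPM in control. The phagocyte clusters differed in size between the libraries, as given above, and the part of this in the 5 called ratios was not tested.

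In T cells the ligand Areg, amphiregulin, was called higher, at 343 CPM in SHP099, from 367 UMIs, and 103 CPM in control, from 158 UMIs, a log2 ratio of 1.73. It binds Egfr, for which the T cells themselves had no UMI in either library. Among the 5 ligands measured there Vegfb was called lower, with 8 UMIs in SHP099 and 19 in control. Of 3 further receptors Ryk was called higher, with 11 UMIs in SHP099 and 10 in control, and Styk1 lower, with 12 UMIs in SHP099 and 33 in control. Of 9 co-receptors and regulators 1 was called lower, and of 5 relay genes none was called. Vegfb and Ryk each passed the 10 CPM limit in 1 library alone, and of all genes measured in T cells 11.3% were called higher and 6.98% lower. The T cell clusters also differed in size. A cluster with Il10 and Foxp3 among its leading genes held 114 SHP099 and 86 control cells. Every other T cell cluster held more control cells, such as 88 SHP099 and 160 control cells in one with Cd8a among its leading genes. The part of this in the T cell ratios, that of Axl included, was not tested.

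Endothelial cells carried several further receptors at 50 CPM or more in at least 1 library. Flt1, another receptor for vascular endothelial growth factor, was at 656 CPM in SHP099 and 577 CPM in control, and Tie1, which works with the angiopoietin receptor, at 170 CPM in SHP099 and 144 CPM in control. Insr, the insulin receptor, was at 72.1 CPM in SHP099 and 93.2 CPM in control, and Kit at 58.2 CPM in SHP099 and 35.3 CPM in control. In fibroblasts Ryk was at 145 CPM in SHP099 and 96.6 CPM in control, Ptk7 at 112 CPM in SHP099 and 71.3 CPM in control, and Epha3 at 46.8 CPM in SHP099 and 61.8 CPM in control. NK cells carried Styk1 at 74.0 CPM in SHP099 and 77.8 CPM in control.

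The genes whose class pattern was most like that of each receptor were found by the same correlation of log2(CPM + 1) over 14 points. For Pdgfra they were Clec11a, Mrc2 and Col3a1, with correlations of 0.97 to 0.98, and for Pdgfrb Pcdh7, Phldb2 and Fam198b, at 0.99 to 1.00. Egfr was most like Adgrd1, Mfap5 and Ak1, and its value with Pdgfra was 0.92. Csf1r was most like Lst1, Sirpb1c and Clec4a3, and Axl like Rab32, Epb41l2 and Rab7b, while Axl and Csf1r had 0.73 between them. Kdr was most like Rasgrp3, Cd300lg and Aplp2, Fgfr1 like Cald1, Ckap4 and Pdia5, and Igf1r like Wwc2, Lix1l and Fgfr1. Erbb2 was most like Scd2, Pcdh19 and Hacd1, and Met like Lmo1, Ap1s1 and Exosc4.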

How the data were processed

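The deposited matrices held UMI counts per gene and cell barcode, which the authors made with Cell Ranger on mm10 (GRCm38) according to the submitters' processing notes. The matrix headers name software version 3.1.0. Counts were used as deposited. Barcodes with under 200 genes or over 20% mitochondrial UMIs were removed (SHP099 103 and 333, control 99 and 282), then doublets called by Scrublet (198 in SHP099, 264 in control). Cells of both libraries were clustered together (scanpy 1.11.5, 2000 variable genes, 30 components, 15 neighbours, Leiden resolution 1.0) and clusters named by at least 3 markers. Clusters below 0.1 times the median cluster in Xist formed the Xist-negative cells.

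UMIs were summed per class and library and scaled to CPM with exact Poisson intervals. To each level 0.5 CPM was added before taking a log2 ratio, and the intervals omit this prior. A gene was called at 1.5-fold or more, among genes at 10 CPM in either library, in classes of at least 200 cells per library; classes of at least 30 cells were described. The calculation was tested on simulated counts. Shares of cells have exact binomial (Clopper-Pearson) intervals. Cells are not replicates, so no p-value was computed.

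The receptors are always named. Other listed genes were named at 50 CPM in a described class or among the 2 highest or 2 lowest ratios of their list in a compared class, and the 3 most alike genes per receptor. Receptors, lists and markers were chosen with earlier results of these data known.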

Additional observations from a re-analysis of the deposited data

Results flagged for a closer look

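Axl, the receptor for Gas6, had intervals on opposite sides of 0 in different classes. Its log2 ratio of SHP099 over control was 0.31 in mononuclear phagocytes and 1.03 in T cells (29 UMIs in SHP099 and 20 in control), and -0.056 in Xist-negative cells. Of the 3 compared classes it was called in T cells alone, and the ratio there was 0.03 with cells assigned by their own markers and 0.55 with each cell counted alike. The difference between classes was not tested, since each group has 1 library.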

How the results depend on the processing

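The count of receptors called higher in Xist-negative cells, 1 as reported, was 0 with ratios centred on the median gene, clusters weighted alike, cells assigned by their own markers, or a prior of 2 CPM, though with own markers the Pdgfrb ratio was 0.66 and its level below 10 CPM. The count called higher in phagocytes, 0 as reported, was 2 with a limit of 1 CPM. Over 11 ratios and 16 alternatives, 23 of 176 values could not change by construction. Of the other 153, 138 moved by no more than the half-width of their counting interval and 15 moved by more, and 10 had the other sign, all of Met or Fgfr1. The cause was not tested. Pdgfra ran from 0.30 to 0.49, Pdgfrb from 0.45 to 0.84, Axl in phagocytes from 0.20 to 0.37 and Csf1r there from 0.06 to 0.24. Axl in T cells was 0.03 when cells were assigned by their own markers. The number of receptors highest in the same class in both libraries was 9 as reported, and 6 with cells assigned by their own markers. Leaving out the shallowest cluster of phagocytes or of Xist-negative cells was chosen after seeing the data. The control library clustered alone gave no endothelial cluster. No paired analysis was possible because each group has 1 library. Endothelial cells and fibroblasts hold under 100 cells per library, so only large ratios stand outside their counting intervals.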
